A study of Mus musculus with 6 samples.

Results

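The genes described here are 8 transcription factors of the thymic epithelium or of the embryonic pouch from which it forms: Foxn1, Pax1, Pax9, Eya1, Hoxa3, Tbx1, Scx and Trp63. All probes whose gene symbol in the platform's annotation was 1 of these names were taken, which gave 9 of the 25697 probes on the array and 7 of its 16593 named genes. No probe carries the symbol Tbx1 in the annotation used, so that gene was not analysed here. RNA was prepared from the thymus of mice of either genotype, Rag2/pfp KO (3 samples) or wild type (3 samples), and each sample was read on a 1-colour bead array (Illumina MouseRef-8 version 2). The Rag2 protein is part of the recombinase that assembles antigen receptor genes, and pfp is the older name of Prf1, the gene of the cytotoxic protein perforin. The labels name the comparison group only as wild mouse or WT, without mention of either deletion, and no treatment is named for either genotype. The sources used here do not give the strain, age or sex of the mice, say whether the genotypes were bred together, or tie each sample to an animal of its own. The p-values therefore reflect variation among these arrays, part of which may be technical.

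Thymic epithelial cells form the stroma in which T cells develop, and they divide into a cortical layer, where immature thymocytes are selected, and a medulla, where self-tolerance is imposed. FOXN1, a forkhead factor, is the master regulator of these cells, and mice without it have no functional thymus. HOXA3, PAX1, PAX9, EYA1 and TBX1 act earlier, in the pharyngeal pouches of the embryo. TRP63 is a relative of p53 that maintains the progenitors of stratified epithelia, the thymus included, and SCX (scleraxis) is best known as the basic helix-loop-helix factor of tendon.

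The promoters of the pair of genes that passed the test below are shown because FOXN1, one of the pair, is known to bind DNA at sites with the core GACGC. Each window runs from 250 bases before to 50 bases after the start site of RefSeq on GRCm38 and is written on the strand of the gene. Capitals mark GACGC on either strand. The Foxn1 window is chr11:78386559-78386858 on the minus strand and the Pax1 window is chr2:147364744-147365043 on the plus strand.
Foxn1: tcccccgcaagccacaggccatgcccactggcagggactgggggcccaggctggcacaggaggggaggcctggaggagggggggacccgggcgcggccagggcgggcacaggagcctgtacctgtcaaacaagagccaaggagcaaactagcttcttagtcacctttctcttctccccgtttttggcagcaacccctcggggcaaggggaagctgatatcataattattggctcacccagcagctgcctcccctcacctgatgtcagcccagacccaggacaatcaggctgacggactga
Pax1: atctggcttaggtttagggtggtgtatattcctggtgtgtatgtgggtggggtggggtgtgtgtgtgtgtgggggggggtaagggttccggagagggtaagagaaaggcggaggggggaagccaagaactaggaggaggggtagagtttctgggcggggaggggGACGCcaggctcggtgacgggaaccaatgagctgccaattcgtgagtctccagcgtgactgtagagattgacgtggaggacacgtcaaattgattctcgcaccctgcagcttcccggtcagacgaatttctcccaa
The Pax1 window held the core 1 time, 86 bases before the start site on the strand of the gene, and the Foxn1 window did not hold these letters. The whole Pax1 window lies inside the gene span given below (chr2:147361930-147375049), so the start site used is not the outer end of that span. RefSeq windows were at hand for 5 of the 8 genes, and 3 of their 6 windows held the core (Pax1, Hoxa3 and 1 of the 2 Tbx1 windows), beside 27.2% of all 32851 windows. The 6 windows had a median of 60.5% G and C bases, against 52.7% over all windows, which bears on how often a core with 2 C and 2 G bases is met. A match is a description of the letters and not a binding site.

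Foxn1 was above background in the knockout and not in the wild type. Its probe (ILMN_1240731, NM_008238, gene at chr11:78357577-78386783 on GRCm38) read 213, 180 and 231 array units on knockout arrays 1 to 3 and 139, 135 and 159 units on wild-type arrays 1 to 3. The groups did not overlap, and the detection p-value, which sets a probe against the negative control beads of its array, was under 0.05 on all 3 knockout arrays and on none of the wild-type arrays. After background correction and quantile normalization (neqc) the log2 signal averaged 6.43 ± 0.44 (SD, n = 3) for the knockout and 4.92 ± 0.18 (SD, n = 3) for the wild type. The difference, given here and below as knockout minus wild type, was 1.51 (SE 0.26), and it passed the limma test with an adjusted p of 0.0198 (Benjamini-Hochberg over all 14097 tested probes). Because the wild-type level has only an upper bound, the knockout exceeded it at least 1.91-fold on this scale, computed as the knockout mean against the mean over wild-type arrays of the lowest log2 signal detected there. This bound and those given below take no account of the spread among arrays and apply to the background-corrected scale alone. The deposited signals averaged 207.7 and 144.3 units, background included. The probe entered the test through the knockout arrays alone, since a probe had to be detected on at least 3 of the 6 arrays. Without background correction the difference was 0.55 (adjusted p = 0.0449), with an offset of 50 it was 0.91, and it missed the threshold without knockout 1 (1.53, adjusted p = 0.0883), wild type 1 (1.47, adjusted p = 0.0908) or wild type 3 (1.61, adjusted p = 0.0739).

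Pax1, a paired box factor that stays active in the cortical epithelium after the thymus has formed, rose furthest among the tested probes of the set. Its probe (ILMN_2816956, NM_008780, gene at chr2:147361930-147375049) read 781, 468 and 713 units in the knockout and 257, 207 and 264 units in the wild type. All 6 arrays were above background, and the lowest knockout array lay above the highest wild-type array. The log2 signal was 9.05 ± 0.35 (SD, n = 3) against 6.83 ± 0.44 (SD, n = 3), a difference of 2.23 (SE 0.29, limma adjusted p = 0.0097) with a 95% interval from 1.53 to 2.92, or 4.68-fold. Only 59 of the 14097 tested probes had a larger positive difference. The call was lost without knockout 1 (2.15, adjusted p = 0.0625) or wild type 3 (2.33, adjusted p = 0.0506), and without background correction the difference was 1.46. Pax1 lies on chromosome 2 like Rag2, 45.7 megabases and 195 tested genes away. An effect of the deleted locus on its neighbours at that distance was not tested.

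Pax9, the paralogue of Pax1 that is needed for pouch outgrowth and also for teeth and palate, was dim. Its probe (ILMN_1248859, NM_011041, gene at chr12:56691693-56712824) read 201, 162 and 216 units in the knockout and 154, 128 and 170 units in the wild type. The deposited signals overlapped, because wild type 3 lay above knockout 2, and only the knockout arrays were above background. On the normalized log2 scale the groups did not overlap, at 6.14 ± 0.60 and 5.08 ± 0.37 (SD, n = 3 each). The wild-type level has only an upper bound, and the knockout mean lay 1.55-fold above that bound on this scale. This value leaves out the spread among arrays, so it is not a minimum for the change. The fitted difference was 1.05 (SE 0.35), with a 95% interval from 0.21 to 1.89. It did not pass (limma adjusted p = 0.112), and without background correction it was 0.39 (adjusted p = 0.162). With the replicate number as a block it passed (SE 0.15, adjusted p = 0.0148), and it passed without knockout 2 (1.36, adjusted p = 0.0467).

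Eya1, a phosphatase and transcriptional coactivator of the pouch endoderm, had 2 probes with like differences (gene at chr1:14168953-14311035, NM_010164). The brighter probe (ILMN_2686435) read 229, 176 and 228 units in the knockout and 162, 147 and 184 units in the wild type. It was above background on 3 knockout arrays and on wild type 3, whose deposited signal exceeded that of knockout 2. Its normalized log2 difference was 1.05 (SE 0.31, limma adjusted p = 0.0876), which passed with the replicate block (SE 0.13, adjusted p = 0.0118) and without knockout 2 (1.33, adjusted p = 0.04). The other probe (ILMN_2638487) read 190, 155 and 208 units against 136, 131 and 159 units. It was above background on knockout 1 and 3 only, so it was not tested, and its log2 difference was 1.07.

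Hoxa3, the homeobox gene without which the thymus does not form, was at the limit of detection (gene at chr6:52169059-52213067, NM_010452). The first of its 2 probes (ILMN_1234863) read 144, 169 and 172 units in the knockout and 162, 163 and 145 units in the wild type, with overlap, and was above background on knockout 2 and 3 only. The other (ILMN_1237475) read between 114 and 134 units in the knockout and between 111 and 136 units in the wild type and was not above background on any array. Neither probe was tested, and their log2 differences were 0.26 and -0.04. A change in Hoxa3 was not detectable at this signal over background.

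Trp63 was well above background on every array. Its probe (ILMN_1216742, NM_011641, gene at chr16:25683763-25892088) read 8871, 3587 and 8707 units in the knockout and 4148, 1623 and 4223 units in the wild type. Knockout 2 lay below wild type 1 and 3 in deposited signal, so the groups overlapped there, and on the normalized log2 scale they just separated (lowest knockout 11.95, highest wild type 11.93). The difference of 1.25 (SE 0.50, 95% interval 0.04 to 2.46) did not pass (limma adjusted p = 0.167), and it was 0.78 without wild type 2 (adjusted p = 0.221). Much of the spread behind this wide interval came from replicate 2, which was low in both genotypes. The differences within pairs 1, 2 and 3 were 1.10, 1.42 and 1.23. Knockout 1 and 3 were alike (13.02 and 13.17), as were wild type 1 and 3 (11.92 and 11.93). These values therefore do not show that arrays 1 and 3 pair by number. With the replicate block the same difference passed (SE 0.13, adjusted p = 0.00891). The sources used here do not say which p63 isoforms the probe measures.

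Scx gave the smallest difference of the tested probes in the set. Its probe (ILMN_1226016, NM_198885, gene at chr15:76457411-76459468) read 198, 188 and 275 units in the knockout and 161, 187 and 181 units in the wild type. The groups did not overlap, but knockout 2 and wild type 2 differed by little, and only knockout 3 stood clearly above the rest. The log2 difference of 0.89 (SE 0.37) did not pass (limma adjusted p = 0.179, and 0.0943 with the block). It was 0.49 without knockout 3 (adjusted p = 0.241), so that array carried much of the value.

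**Figure D1:**
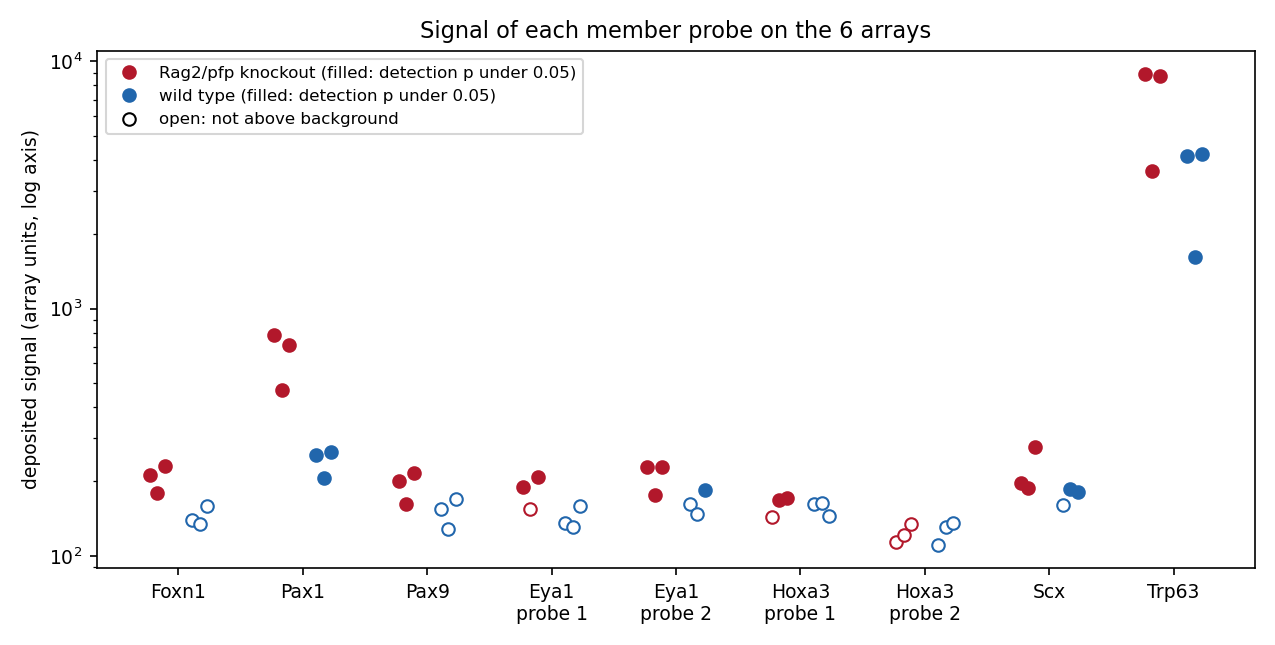
Deposited signal (array units, log axis) of the 9 member probes on 3 knockout (red) and 3 wild-type (blue) arrays, filled where the detection p was under 0.05 and open otherwise. Pax1 and Trp63 were above background on all 6 arrays, Foxn1 and Pax9 on the 3 knockout arrays only, and the second Hoxa3 probe on none.

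The detection filter left 6 of the 9 probes, 1 each for Foxn1, Pax1, Pax9, Eya1, Scx and Trp63. At an adjusted p of 0.05, 2 of them were higher in the knockout and 0 were lower, where 5.48% of all tested probes were higher and 5.58% lower. The unadjusted p was 0.0503 for Scx and between 0.000191 and 0.0445 for the others. The 6 probes had no overlap on the normalized scale in the upward direction, found for 15.9% of all tested probes. Foxn1 and Pax9 entered through the knockout arrays alone, so these counts do not describe all members and are not independent of direction. The median difference over all tested probes was 0.00. With the block, 5 of the 6 were called higher, all but Scx, where 11.4% of all tested probes were. The 95% intervals of the 6 differences overlapped one another, and whether the changes differed in size was not tested.

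**Figure D2:**
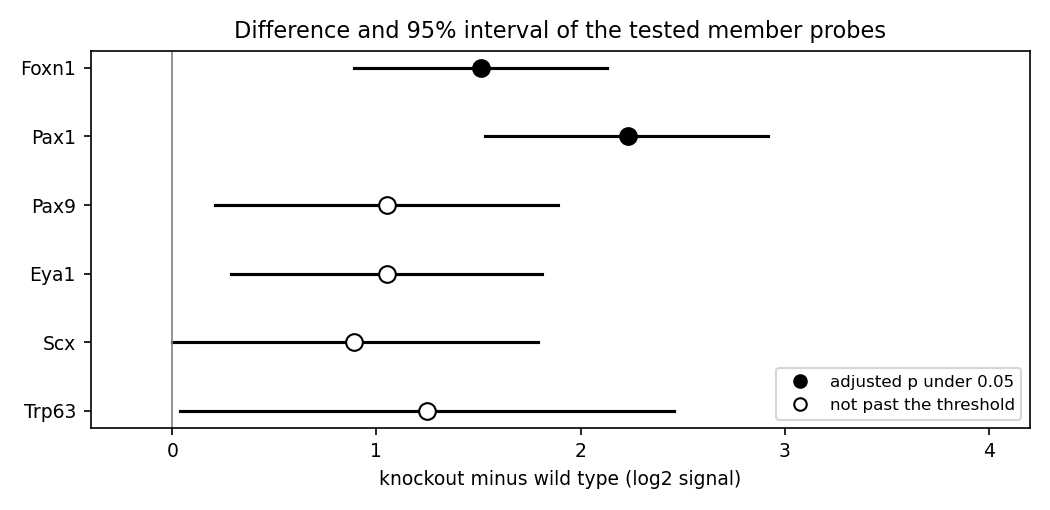
Difference (knockout minus wild type, log2 signal) of the 6 tested member probes with its 95% interval from the limma fit, filled where the adjusted p was under 0.05. Foxn1 (1.51) and Pax1 (2.23) passed, and the lower ends of the other intervals lie between 0.00 (Scx) and 0.29 (Eya1).

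Replicate 2 was the lowest array for most of these factors in both genotypes. For Foxn1, Pax1, Pax9, Eya1 and Trp63, 5 of the 6 tested probes, it was the lowest knockout array and the lowest wild-type array, where 42.2% of all tested probes showed that pattern. Trp63 on replicate 2 differed from the mean of the other arrays of its genotype by -1.15 in the knockout and -1.40 in the wild type on the log2 scale. For Pax1 these deviations were -0.59 and -0.75, and for Pax9 -0.94 and -0.61. Scx was lowest in replicate 1 of both genotypes. The summed normalized signal of 6 heart genes was highest on replicate 2 in both genotypes (60439 in the knockout and 54119 in the wild type, against 2278 to 19985 and 608 to 1825 on the others), and that of 6 fat genes was too (65915 and 59434, against 3875 to 37635 and 3760 to 10592). With replicate 2 of both genotypes left out, Trp63 differed by 1.16 (limma adjusted p = 0.00737), Pax9 by 1.16 (adjusted p = 0.0251) and Eya1 by 1.14 (adjusted p = 0.0179). Scx did not pass there (1.21, adjusted p = 0.114). That fit had 2 arrays per genotype and dropped those on which Trp63, Pax9 and Eya1 were lowest, so its calls are not separate evidence. It called 2016 of all tested probes higher, against 772 in the main fit.

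**Figure D3:**
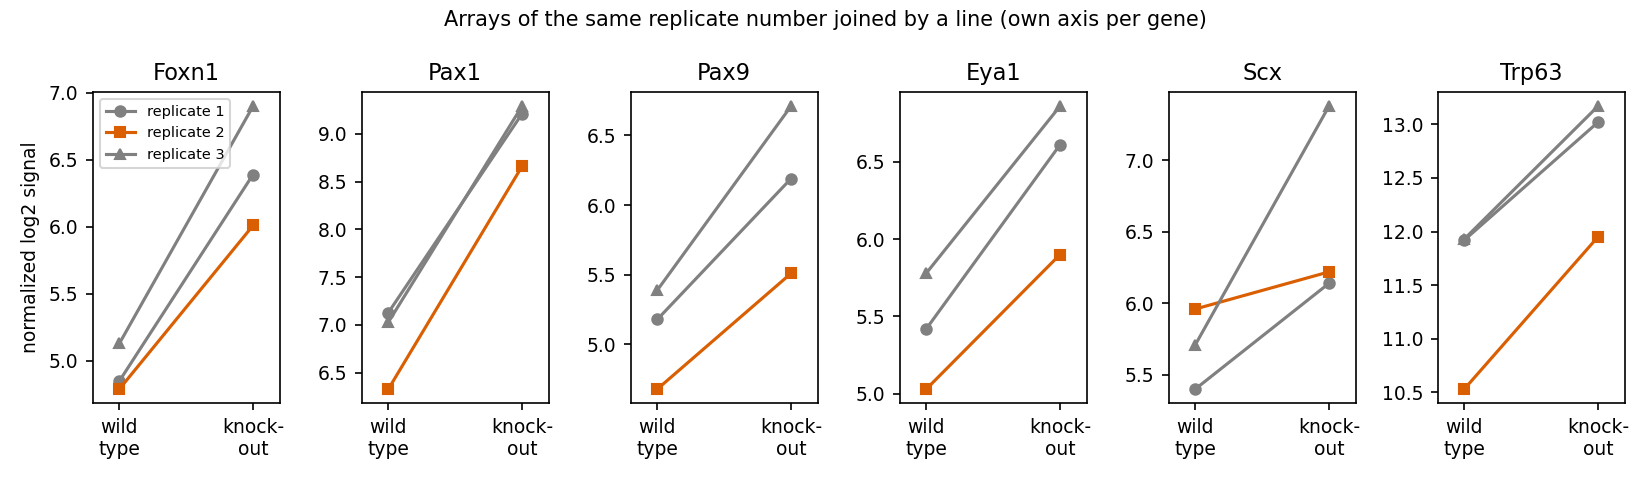
Normalized log2 signal of the 6 tested member probes, with wild-type and knockout arrays of the same replicate number joined by a line and replicate 2 in orange (each panel has its own axis). Every line rises, from 0.26 (Scx, replicate 2) to 2.33 (Pax1, replicate 2), and replicate 2 lies lowest in both genotypes for all genes but Scx.

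Genes reported to depend on FOXN1 in the epithelium were higher in the knockout. Of 11 listed, 10 had a probe (not Psmb11) and all 10 rose, with differences between 1.44 and 2.30 and a median of 1.99 (0.01 over all 9849 tested genes, of which 6.09% were called higher and 5.57% lower; with the block 10 rose, beside 12.4% of all tested genes). Dll4, the Notch ligand that drives T cell commitment, had log2 signals of 8.78, 8.40 and 8.96 on the knockout arrays and of 6.36, 6.56 and 6.31 on the wild-type arrays. The groups did not overlap, and Dll4 rose by 2.30 (SE 0.19, limma adjusted p = 0.00406). The lysosomal protease gene Ctsl (2.25, adjusted p = 0.0268), the endocytic receptor gene Ly75 (2.24, adjusted p = 0.0196) and Cd83 (2.16, adjusted p = 0.00698), whose protein stabilises MHC class II on the cortical epithelium, rose by like amounts. The chemokine genes Cxcl12 and Ccl25, which draw progenitors into the thymus, rose by 1.83 and 1.49 (adjusted p = 0.00986 and 0.0406, and 0.0622 for Ccl25 without the detection filter). On wild-type arrays 1 to 3 Cxcl12 read 11.92, 12.69 and 12.13 and Ccl25 13.35, 12.37 and 13.35 on the log2 scale. The list thus did not share 1 pattern over the arrays, and the cells that gave each RNA were not tested. Most of these genes had been seen to rise in earlier results on the same arrays, so the count is not independent evidence. With 1 array left out the calls numbered 1 (no knockout 1), 3 (no knockout 3), 2 (no wild type 1) and 2 (no wild type 3). Dll4 and Ly75 lie on chromosome 2 like Rag2, Dll4 at 17.7 megabases from it, and an effect of the deleted locus on them was not tested.

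Among other genes of pouch and thymus formation 1 passed the test in the main fit. Of 23 listed, 18 had a probe and 11 were tested, 1 rose and 0 fell (6 and 0 with the replicate block), with a median difference of 0.66. Over all tested genes 6.09% were called higher and 5.57% lower, and 12.4% were higher with the block. These shares also stand beside the counts of the lists below. Hoxb3, Hoxd3, Fgf8, Nog, Shh and Dach1 were not above background on any array. Eya4, a relative of Eya1, rose by 1.21 (SE 0.26, limma adjusted p = 0.0369; without knockout 1, knockout 3, wild type 1 or wild type 3 no gene of the list passed). The Eya4 call was also lost without wild type 2 (1.09, adjusted p = 0.0612), without background correction and on the authors' processed values (0.43, adjusted p = 0.0727 in each), and without the detection filter (adjusted p = 0.0511). The LIM homeobox gene Isl1 differed by 1.37 (adjusted p = 0.0889, and 0.0145 with the block), and the adaptor gene Crkl by -0.33 (adjusted p = 0.259).

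Genes of p63-positive basal epithelium went both ways. Of 20 listed, 14 were tested, 4 rose and 1 fell (7 and 1 with the block), with a median of 0.99. Over all tested genes 6.09% were higher and 5.57% lower, and 12.4% were higher with the block. The Notch ligand gene Jag2 (1.43, limma adjusted p = 0.0227), the desmosomal cadherin gene Dsc3 (1.38, adjusted p = 0.0337, and 0.0564 without background correction) and the hemidesmosome integrin gene Itgb4 (1.26, adjusted p = 0.0298) rose. Krt14, the keratin of basal and medullary epithelium, fell by 3.06 (SE 0.46, adjusted p = 0.0139), from 11.97 ± 0.74 to 8.91 ± 0.59 (SD, n = 3 each). Krt17 differed by 0.09 (adjusted p = 0.908) and the laminin gene Lamb3 by 1.26 (adjusted p = 0.112, and 0.0101 with the block). No gene of the list passed in the fits that left out knockout 1, wild type 1 or wild type 3, and without knockout 3 there were 1 rise and 1 fall.

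Levels of general epithelial genes and of thymocyte genes were read beside the factors, and their part in the factors' differences was not tested. Among 10 tested general epithelial genes 1 rose and 1 fell (5 and 1 with the block), with a median of 0.61. The shares over all tested genes were 6.09% higher and 5.57% lower, and 12.4% higher with the block. The simple keratin gene Krt18 rose by 1.95 (limma adjusted p = 0.0276), Krt8 differed by 1.39 (adjusted p = 0.059) and 0.0306 with the block, E-cadherin (Cdh1) by 0.96 (adjusted p = 0.127, and 0.0227 with the block), and Krt19 fell by 1.53 (adjusted p = 0.0499). The summed signal of these genes ranged from 25719 to 35566 in the knockout and from 6868 to 15863 in the wild type. That of 5 markers of double-positive thymocytes, which carry both CD4 and CD8 and make up most of a normal thymus, ranged from 7105 to 12538 against 46892 to 60134, and Cd8b1, Cd4, Cd28 and Slamf1 fell (differences of -7.32, -4.65, -4.03 and -3.30, each called with any array left out), while Arpp21 differed by -0.37 (adjusted p = 0.372). Cd8a and Ccr9 were not above background on any array, the wild type included, where Cd8b1 averaged 15.12 on the log2 scale. A probe that is not above background here therefore does not show that the RNA was absent. In bulk tissue more epithelial cells in the RNA and more RNA of a factor per cell cannot be told apart. Of 10 tested medullary genes 0 were higher and 2 lower (6 lower with the block), with a median of -1.03. Over all tested genes 5.57% were lower, and with the block 1703 of all 14097 tested probes were. The chemokine gene Ccl21a fell by 3.43 (adjusted p = 0.0149). The costimulatory ligand gene Cd80 was above background on the wild-type arrays alone, through which it entered the test. It was at least 1.59-fold lower in the knockout on the background-corrected scale (adjusted p = 0.048), and differed by -0.34 without background correction. Its call was lost under median centring, an offset of 50, a trended and robust fit, without background correction, without the detection filter and on the authors' processed values (adjusted p from 0.0513 to 0.104). Cd40 and Relb differed by 0.10 and 0.00 (adjusted p = 0.853 and 0.996). Not all uncalled medullary genes were so flat. The regulator genes Aire and Fezf2 differed by -2.25 and -2.88 (adjusted p = 0.0712 and 0.0579, and 0.0112 and 0.00629 with the block). No gene of the general or medullary list passed in fits that left out knockout 1, wild type 1 or wild type 3, without knockout 3 none of the general list did, and leaving out knockout 2 or wild type 2 gave 1 and 6 medullary falls. The Krt19 call was lost under median centring, in a trended and robust fit, without background correction, without the detection filter, on the authors' processed values (adjusted p from 0.0518 to 0.0782) and with any single array left out.

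**Figure D4:**
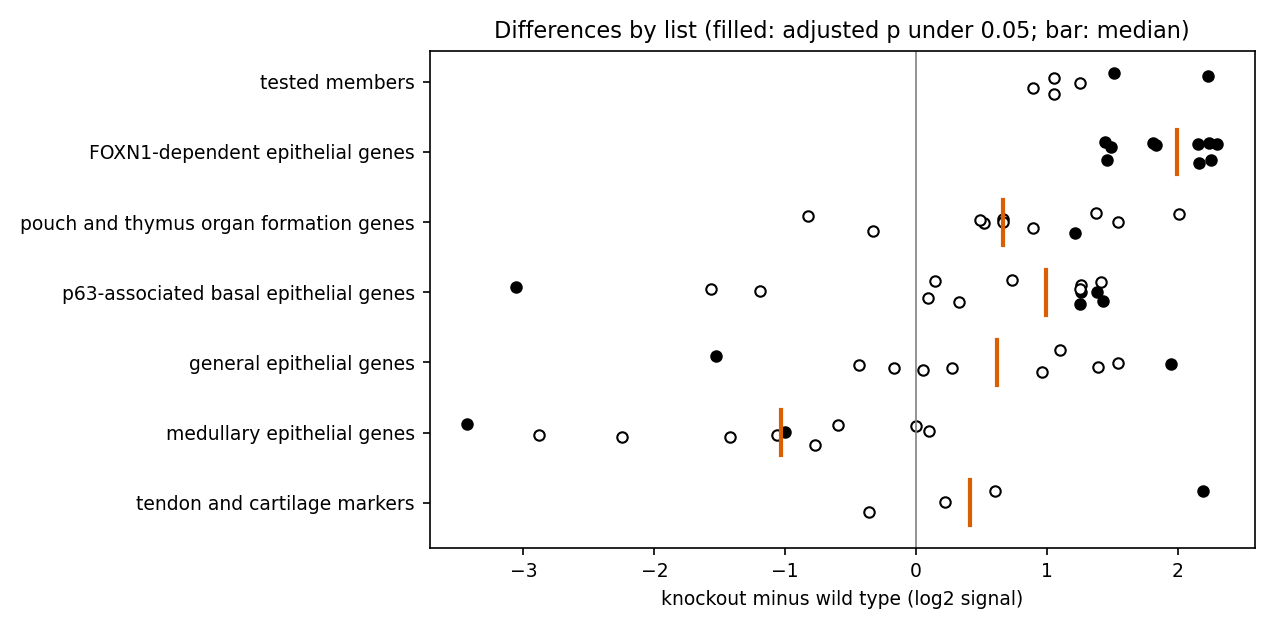
Difference (knockout minus wild type, log2 signal) of each tested gene in 6 lists and of the 6 tested members, filled where the adjusted p was under 0.05, with the median of each list as an orange bar. All 10 FOXN1-dependent genes lie between 1.44 and 2.30, and medullary genes have a median of -1.03.

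Markers of other tissues bear on the factors that are also active outside the thymus. Of 10 tendon and cartilage genes 4 were tested, and Mkx, a homeobox gene of tendon, rose by 2.19 (limma adjusted p = 0.012). That is at least 3.71-fold on the background-corrected scale alone, and without background correction the Mkx difference was 0.92 (adjusted p = 0.0272). Its wild-type arrays were not above background, so it entered through the knockout arrays alone, and it did not pass when knockout 1, wild type 1 or wild type 3 was left out. The matrix genes Fmod and Comp differed by -0.36 and 0.60 (adjusted p = 0.678 and 0.16). The summed signal of the 4 genes ranged from 336 to 419 in the knockout and from 188 to 281 in the wild type, and Thbs4 and Kera were not above background on any array. Parathyroid and thyroid genes, tissues that arise beside the thymus, summed to 160, 78.2 and 2110 on knockout arrays 1 to 3. On wild-type arrays 1 to 3 they summed to 2487, 122 and 531. Casr, Pax8, Slc5a5 and Nkx2-1 were not above background on any array. The thyroglobulin gene Tg was at least 1.49-fold lower in the knockout on the background-corrected scale (limma adjusted p = 0.0191). Without background correction it differed by -0.48. Airway and lung genes summed to 147, 112 and 1417 against 413, 160 and 7414, with Sftpc, Sftpb and Sftpa1 not above background on any array. With the mean level of 7 such probes as a covariate, Trp63 differed by 1.69 (adjusted p = 0.0137), Pax9 by 1.35 (adjusted p = 0.00853), Eya1 by 1.30 (adjusted p = 0.0125) and Foxn1 by 1.69 (adjusted p = 0.00401), in the same direction as without it. Pax1 passed too (2.46, adjusted p = 0.0018), and Scx did not (1.04, adjusted p = 0.104). The centred covariate was lowest on replicate 2 in both genotypes (-1.62 in the knockout and -1.18 in the wild type) and includes Tg. It is therefore not a separate control for stray tissue, and its effect apart from replicate 2 was not tested. Of the remaining lists, skeletal muscle had 0 of 5 tested genes higher and 1 lower (Mylpf, the fast myosin light chain, by -2.40). Epidermis and oesophagus had 0 of 5 higher and 1 lower (Krtdap), and heart (6 tested), fat (6) and fibroblast genes (5) had 0 called in either direction. Krtdap was at least 4.63-fold lower on the background-corrected scale, and without background correction it differed by -1.28. Tg and Krtdap were not above background on any knockout array and entered through the wild type alone. Neither passed without knockout 1, knockout 3, wild type 1 or wild type 3, Krtdap did not without knockout 2 either (adjusted p = 0.0551), and Mylpf did not when knockout 1, wild type 1 or wild type 3 was left out.

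The probes whose pattern over the 6 arrays was most like that of each tested factor were named by Pearson's r, as a description over 3 arrays per genotype and 14097 probes. For Foxn1 these were Eri3, Slc25a24 and Cnn3 (r from 0.998 to 0.999), of which Cnn3, a calponin, rose by 1.02 (limma adjusted p = 0.0251). For Pax1 they were Tmem169, Armc3 and Synm (r from 0.999 to 1.000), which rose by 2.89, 1.62 and 1.56 (adjusted p = 0.0084, 0.0137 and 0.0137). For Trp63 they were Osbpl3, 1700019D03Rik and Hs3st3a1 (r of 0.999 each), none of which passed. Those for Pax9 were Efcab14, Lpcat2 and Rac3 (r of 0.996 each), those for Eya1 were Otof, Bok and Cbr2 (r from 0.995 to 0.996), and those for Scx were Zdhhc3, Sdk1 and Mrpl23 (r from 0.979 to 0.986).

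Facts of the whole series bear on these values as follows. Between 13729 and 13878 probes per array had a detection p under 0.05, and the median signal ranged from 172 to 186 units. The Rag2 probe differed by -1.51 (SE 0.39, limma adjusted p = 0.0579). The brighter Prf1 probe differed by -0.64 (adjusted p = 0.0866) and the other Prf1 probe by 0.06 (adjusted p = 0.896). The position of these probes against the deleted segments is unknown here, so they do not check the genotype labels. Precision is limited by having 3 arrays per genotype.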

How the data were processed

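Per the file headers, the authors deposited, for each probe and array, a signal intensity on a linear scale that had not been normalized, and beside it a detection p-value; the submitters' processing notes name GenomeStudio 2011.1. The authors' other deposited table is on the log2 scale: all columns share 1 distribution with a median of 7.48, run in the direction of the log2 signal (r of at least 0.9997) and are not centred on 0. How the authors made it is unknown here.

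Background correction (from the detection p-values, offset 16), quantile normalization and log2 transformation used neqc of limma 3.58.1 in R 4.3.3. Figures used Python 3.11.15 with matplotlib 3.10.9. Probes detected (p under 0.05) on at least 3 of 6 arrays were tested (14097) with lmFit and eBayes, knockout against wild type. Benjamini-Hochberg adjustment was over these probes, with a threshold of 0.05. The fit was also run on simulated data with independent noise on each array, which does not cover deviations shared between arrays. In lists a gene is its tested probe with the highest mean. No column of sample values was left out (0).

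Replicate numbers come from the titles and occur in both genotypes. Deviations from the genotype means over tested probes correlated at 0.104, 0.75 and 0.559 for the pairs numbered 1, 2 and 3, all over 0.1, so the numbers were taken to pair the arrays, although knockout 1 correlated at 0.108 with wild type 3 and knockout 3 at 0.727 with wild type 1. Of the pairs that share a number, only pair 2 was the best match in both directions. Calls with the block therefore rest on a pairing that is unsure for arrays 1 and 3. The fit without the block remained the main one.

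The members and gene lists were chosen with earlier results of these data known. Genes named are all members, per list up to 4 called genes with the largest change and up to 2 uncalled ones with the highest mean, the 3 most like genes per tested member, and Rag2. Cxcl12, Ccl25, Prf1, Aire and Fezf2 were added after their values were seen. Alternatives were median centring, no background correction, offset 50, the authors' log2 values, no filter, a filter of 0.01 on every array, the block by replicate number, a variance trend with robust moderation, array weights, a stray tissue covariate, and leaving out arrays. In fits without an array the probes tested were kept.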

Additional observations from a re-analysis of the deposited data

How the results depend on the processing

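All 6 tested members kept a positive difference in every alternative that gave a value, and the count of members called lower stayed at 0 in each. Foxn1 ranged from 1.28 to 1.72 when 1 array was left out and from 0.55 to 1.72 over all alternatives. It was called in 12 of 15 alternatives, and Pax1 in 14 of 16. The lost calls all came from fits with 1 array fewer. Among these alternatives, no background correction and the authors' values gave almost the same results, so they count nearly as 1. The number of member probes called, 2 in the main fit, was 5 with the replicate block, 5 with the stray tissue covariate, 5 without replicate 2 of both genotypes, 1 with detection on all 6 arrays at 0.01 (where Foxn1 is not tested) and 0 to 4 with 1 array left out. The FOXN1-dependent genes called higher numbered 1 to 9 with 1 array left out. The replicate block raised the higher calls over all probes from 772 to 1605 and the lower calls from 787 to 1703; higher calls numbered 1402 with the covariate, 2016 without replicate 2 of both genotypes, and 76, 289, 101 and 90 without knockout 1, knockout 3, wild type 1 and wild type 3. Lower calls numbered 1983 without replicate 2 of both genotypes, and 136, 418, 142 and 126 in the same 4 fits. The block changed the calls of Pax9, Eya1 and Trp63 and of no other tested member. Array weights could not be fitted, since the estimate did not converge. Members near background (Foxn1, Pax9, Eya1, Hoxa3 and Scx) are limited by signal over background, and their differences shrank to 0.36 to 0.55 for the tested ones without background correction, which leaves the background in the signal.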
